A study of Drosophila melanogaster with 14 samples.

Results

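Gene expression in the heads of fumin (fmn) flies was compared with that of control (w1118) flies during the night. The members of the comparison were the 3 fmn arrays and the 3 control arrays of zeitgeber time (ZT) 16, ZT 20 and ZT 24, taken from the sample labels, 6 arrays of 14 in all. ZT 0 is the time of lights on and ZT 12 that of lights off, so ZT 16 and ZT 20 fell in the dark and ZT 24 at the end of it. fmn flies carry a mutation in the dopamine transporter gene and had been backcrossed to the control background before the experiment, and w1118 flies carry a mutant white gene. Both genotypes were reared and kept under the same cycles of light and dark. Heads of males and females were pooled for each RNA, 1 pool per genotype and time. The labels do not give the age of the flies, and the methods of the study give one for male flies. The study states that its backcross had apparently not made the chromosome region next to DAT the same in both genotypes, which, if so, limits fmn as a model of the transporter alone. The 8 arrays of ZT 0, ZT 4, ZT 8 and ZT 12, 4 of each genotype, were used to see whether the night differences were present at other times.

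Dopamine promotes waking in flies as it does in mammals. The dopamine transporter DAT takes released dopamine back into the neuron and so ends its action, and flies without it are active for much of the night, when flies normally sleep. Sleep in the fly is also set by potassium channels, by GABA, by glutamate and its NMDA receptor, by the calcium-dependent phosphatase calcineurin and by the circadian clock. The fly head holds the brain, the compound eyes, the antennae, muscle and a layer of fat body that serves in metabolism, detoxification and immunity, so a head array measures all of these together. In such samples, fewer cells of a type and less RNA per cell cannot be told apart.

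The deposited values were MAS5 signals, a linear measure of brightness for each probe set of an Affymetrix array. On the 6 night arrays the 75th percentile of the signals was 566 to 587, and 8601 to 8709 probe sets per array reached a signal of 100. The log2 signals were used relative to the 75th percentile of their own array. Changes are given as log2 differences of fmn minus control, as the mean of the 3 time points. The standard error (SE) beside them is that of limma, which also draws on the spread of all tested probe sets. Where 3 signals follow a genotype, they are those of ZT 16, ZT 20 and ZT 24 in this order. On the night arrays the summed signals of testis and male accessory gland markers (366 to 580 in control, 428 to 492 in fmn), of ovary markers (602 to 747 and 551 to 764) and of gut enzymes (491 to 560 and 541 to 548) were low, with 24, 16 and 32 of the 24, 17 and 33 genes under a signal of 100 on all 3 control arrays. Neuronal markers, which define the tissue, had sums of 26329 to 28020 in control and 27397 to 28381 in fmn, and of 9 tested 2 were higher (elav and para) and 1 lower (brp). Of the testis, ovary and gut lists 1 gene each was tested, and 1, Acp95EF of the male accessory gland, was higher (0.49). The night arrays had been chosen as free of transcripts of these organs, so the low sums are no separate result. The sums did not overlap for photoreceptor markers (106212 to 117010 in control, 94892 to 101877 in fmn), glial markers (25867 to 27424 and 22767 to 23586), muscle markers (53182 to 57818 and 48582 to 50289), antennal markers (53385 to 61637 and 50939 to 53127) and hemocyte markers (5524 to 6170 and 6244 to 6753), the last being higher in fmn and the others lower. Of the markers of these 5 tissues, 0 of 7, 1 of 11 (Gs2, lower), 0 of 13, 0 of 5 and 0 of 6 tested genes changed, and the part of these tissues in the results below was not tested. As to RNA quality, the ratio of 3' to 5' signal of the eIF-4a control probe sets did not overlap at night (2.84 to 3.12 in control, 2.38 to 2.62 in fmn), those of actin (1.73 to 2.28 and 1.77 to 2.13) and GAPDH (2.17 to 2.39 and 2.21 to 2.44) did, and the 18S rRNA signal was 513 on the fmn array of ZT 16 against 132 to 255 on the 13 other arrays. The part of these in the results was not tested either.

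Many transcripts differed between the genotypes at night, most of them by less than 2-fold. Of 8720 probe sets tested, 677 (7.76%) changed, which means a Benjamini-Hochberg adjusted p under 0.05 from limma with the time point as a block and a log2 difference of at least 0.32 in size. In fmn 347 (3.98%) were higher and 330 (3.78%) were lower. The changes had a median of 1.44-fold. A change of 2-fold or more was seen for 78 probe sets (48 higher, 30 lower) and one of 4-fold or more for 8. All 677 differed in 1 direction at all 3 time points, and for 636 of them the 3 fmn arrays did not overlap the 3 control arrays, against 2309 (26.5%) of all probe sets tested, or 851 (9.76%) where a log2 difference of 0.32 was also asked for. The choice by adjusted p on these same arrays by itself favors both, so they are no separate support for the changes. A single gene is named for 585 of the changed probe sets, 558 genes in all. With each gene given by its brightest probe set, 501 of 7163 genes (6.99%) changed, 255 (3.56%) higher and 246 (3.43%) lower, and the median difference over all genes was -0.01. The counts for gene lists below are to be read beside these shares. Log2 differences of at least 0.32 in size between genotypes occurred at each night time alone in 17.1% to 20.2% of all probe sets tested, and between 2 night times of 1 genotype in 9.06% to 16.2%. The count rests on the filter that asked for a signal of at least 100 on at least 3 of the 6 arrays. With all 18769 probe sets in the fit, 0 passed limma's adjusted p and 1866 had an unadjusted p under 0.05. With the filter, the methods' t-test, run with the same adjustment and size of difference, called 175. Without the arrays of ZT 16, 349 probe sets changed, without those of ZT 20 440, and without those of ZT 24 417.

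**Figure D1:**
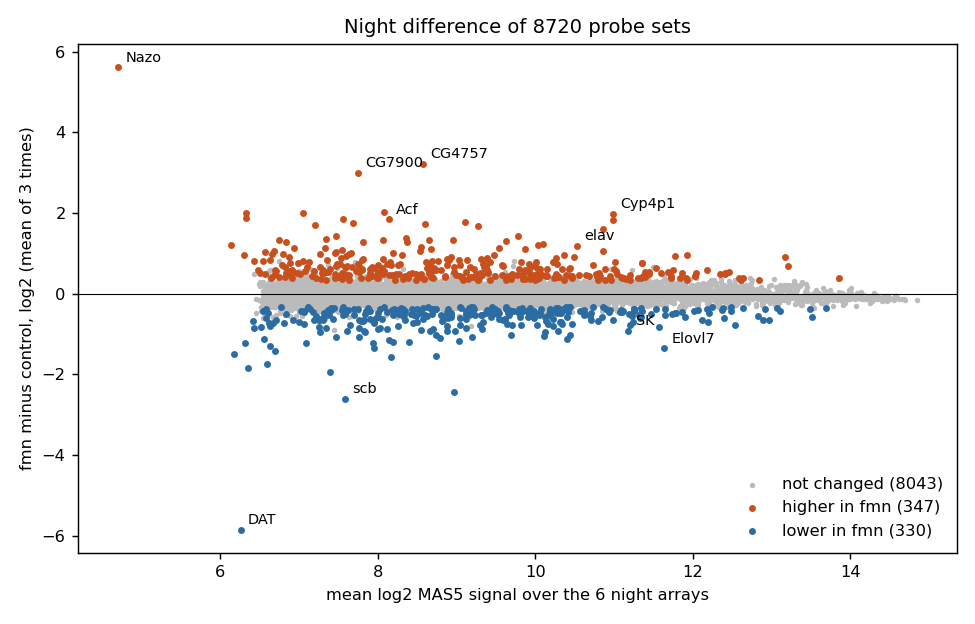
The horizontal axis gives the mean log2 MAS5 signal of each of 8720 probe sets over the 6 night arrays and the vertical axis the log2 difference of fmn minus control, as the mean of 3 times. The 347 probe sets that were higher in fmn and the 330 that were lower lie at all signal levels. The 2 points at -5.85 (DAT) and 5.61 (Nazo) rest on signals under 100 in 1 genotype, for which only the bounds of 5.82-fold and 1.87-fold hold.

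DAT was almost undetected in fmn heads. Its signal in control was 576, 619 and 551, and in fmn it was 10.03, 7.05 and 14.5, all far below a signal of 100 that served as the floor. Against that floor it was at least 5.82-fold lower (log2 difference -5.85, SE 0.21, adjusted p = 0.000269, limma). scb, which encodes an alpha integrin, had signals of 449, 512 and 460 in control and 68.4, 82.6 and 82.6 in fmn, at least 4.74-fold lower (-2.61, SE 0.08, adjusted p = 0.00018, limma). The study attributes the low signal of this probe set to base changes in fmn under its probes, so its value is not a measure of the amount of scb RNA. scb lies on the same chromosome arm, 2R, 177 genes from DAT. Among the genes between and including scb and DAT, 12 of 87 tested (13.8%) changed, 4 higher and 8 lower. scb and DAT, known from the study to have low signals, bound this stretch and are themselves among the 12. Within 250 genes on either side of DAT, 23 of 244 (9.43%) changed, 10 higher and 13 lower, against 75 of 1219 (6.15%) on the rest of the arm and 478 of 6919 (6.91%) of all genes outside the window. scb and DAT also count among these 23. In stretches of 100 gene positions along the arm (negative before DAT) the share ran from 0% (-800 to -701) to 16.0% (-200 to -101). It was also 15.6% at -1500 to -1401 and 14.3% at 800 to 899, and 4.44% at 100 to 199. Without ZT 16 the share in the window of 250 genes on either side was 6.15%, against 3.57% of all genes in the same fit. The window also held CG30098 (111, 101 and 92.5 in control, 232, 269 and 280 in fmn, 1.36, SE 0.12), CG8401 (1.02, SE 0.10), the splicing factor gene mbl and the receptor tyrosine kinase gene Alk, which are described further on. Among its other changed genes were hbs, Hex-C, Mtk, GstS1 and Rpn6, which are described under their gene lists. By chromosome arm the share of changed probe sets ran from 4.41% (3 of 68) on 4 and 6.19% on 3L to 8.35% on X and 9.03% on 3R, and on X 39 were higher and 68 lower.

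Cyp4p1, Acf, jim and Lsp2 were among the 12 genes with the largest rises and had control signals above 100. Cyp4p1, a cytochrome P450, had signals of 906, 1049 and 1128 in control and 3737, 3689 and 4756 in fmn (1.98, SE 0.08, adjusted p = 0.000301, limma). Acf, whose product acts in chromatin remodelling, had signals of 155, 135 and 157 in control and 563, 493 and 553 in fmn (1.84, SE 0.07). The fmn arrays lay within a narrow range for both and well above every control array. A probe set of jim, a zinc finger gene, rose from 282, 304 and 310 to 980, 1005 and 1076 (1.77, SE 0.07), while the 2 other tested probe sets of jim differed by 0.14 and 0.16 with adjusted p of 0.455 and 0.450 (limma). The one that rose has the suffix of probe sets shared by similar transcripts. Lsp2, a larval serum protein that the adult fat body also makes, had signals of 1176, 572 and 1836 in control and 3021, 2931 and 6207 in fmn (1.82, SE 0.18). It was higher at ZT 24 than at ZT 20 in both genotypes, and in the fit without the time block its adjusted p was 0.057 (limma).

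Several of the genes with the largest rises had control signals near or below 100. Nazo had signals of 9.03, 2.87 and 1.99 in control and 134, 221 and 205 in fmn, at least 1.87-fold higher. CG7900 (60.9, 88.2 and 80.8 in control, 664, 632 and 532 in fmn) was at least 6.09-fold higher, and CG30287 (35.5, 50.7 and 40.9 against 170, 153 and 137) at least 1.54-fold. A probe set of Trpm, a cation channel of the TRP family, was at least 1.63-fold higher (44.5, 38.2 and 37.9 against 185, 126 and 178). These 4 were below the floor on all 3 control arrays and above it on all 3 fmn arrays. The 3 other tested probe sets of Trpm differed by -0.33 to 0.02 and did not pass, nor did a second one of CG42784, at -0.05. Trpm lies at gene position -175 relative to DAT, between scb and DAT. Whether base changes affect the signal of its higher probe set was not tested. CG4757 went from 160, 125 and 97.3 to 994, 1278 and 1247 (3.22, SE 0.19), CG43085 from 185, 115 and 114 to 516, 521 and 601 (2.02, SE 0.18), and CG42784 from 53.1, 105 and 51.3 to 275, 311 and 215 (2.003, SE 0.15). The alpha tubulin gene alphaTub84D had signals of 137, 71.9 and 98.1 in control and 375, 355 and 337 in fmn (1.84, SE 0.16). Its probe set has the suffix of those shared by similar transcripts, so other alpha tubulins may add to its signal. The adjusted p of these 8 genes ran from 0.000462 (CG7900) to 0.00349 (Nazo) in limma.

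Elovl7, Ugt37D1 and 2mit were among the 12 genes with the largest falls. Elovl7, a fatty acid elongase, had signals of 4996, 5472 and 4814 in control and 2169, 2016 and 1792 in fmn (-1.36, SE 0.08, adjusted p = 0.000843, limma). Ugt37D1, a UDP-glycosyltransferase, went from 697, 818 and 681 to 215, 281 and 259 (-1.55, SE 0.09). 2mit, which encodes a transmembrane protein with leucine-rich repeats, went from 562, 401 and 543 to 171, 174 and 159 (-1.57, SE 0.12). In none of these did a control array come near an fmn array. The cullin gene Cul6 (178, 170 and 184 in control, 48.8, 58.8 and 50.4 in fmn) was at least 1.77-fold lower, the cytochrome P450 Cyp6d2 (216, 212 and 107 against 64.6, 57.2 and 69.3) at least 1.79-fold, and tmod, the actin-capping tropomodulin (122, 127 and 114 against 70.0, 37.4 and 30.8), and CG1113 at least 1.21-fold each. CG9265 differed by -1.34 (SE 0.13), CG32809 by -1.24 (SE 0.14) and CG15553 by -1.21 (SE 0.08). Without ZT 16 the adjusted p was 0.119 for Cyp6d2, 0.0792 for CG1113 and 0.0533 for CG32809 (limma). A second probe set of CG32809 differed by 0.21 and did not pass, nor did a second one of tmod, at -0.24.

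**Figure D2:**
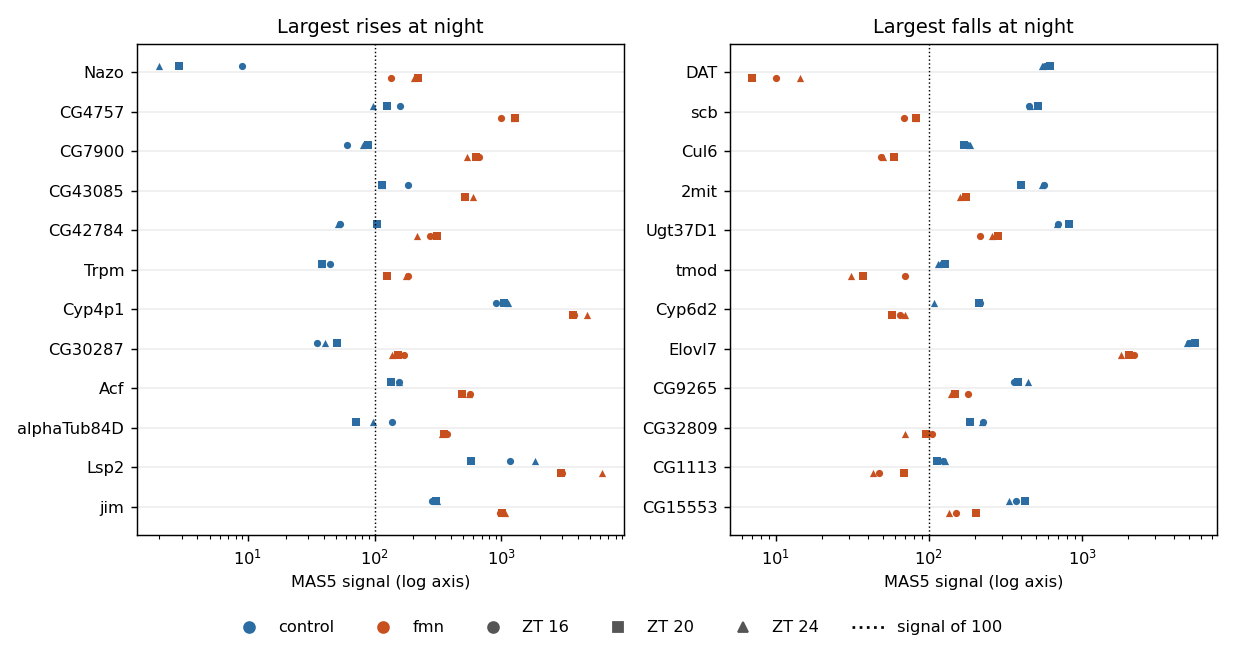
The MAS5 signals (log axis) of the 12 genes with the largest night rises and the 12 with the largest falls, 1 point per array, with colour for genotype and marker for time. In each gene the 3 fmn points lie apart from the 3 control points, and Nazo, CG7900, Trpm and CG30287 in control and DAT, scb, Cul6, tmod, Cyp6d2 and CG1113 in fmn lie below a signal of 100.

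Of 54 probe sets with signals of at least 100 on all 3 arrays of 1 genotype and under 100 on all 3 of the other, 28 were above it in fmn and 26 in control, a choice that by itself favors a difference. Besides the genes named above, they included CG3513 (62.3, 83.3 and 77.3 in control, 200, 189 and 149 in fmn, at least 1.79-fold higher) and CG15547 (47.3, 61.8 and 33.7 against 103, 102 and 115, at least 1.07-fold higher). Without ZT 16 the adjusted p of CG15547 was 0.0917 (limma).

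Apart from DAT, genes of dopamine synthesis and breakdown differed little. Of 13 genes for the making, transport and breakdown of dopamine and related amines (Tbh, Tdc1 and Tdc2 act in octopamine and tyramine synthesis) 0 were higher and 2 lower, DAT and e, with a median difference of -0.04. ple, the tyrosine hydroxylase that makes DOPA, had signals of 114, 148 and 112 in control and 150, 94.1 and 117 in fmn, which overlapped (-0.07, SE 0.19, adjusted p = 0.864, limma). Ddc, which makes dopamine from DOPA, had signals of 2459, 2366 and 2260 and of 2468, 2309 and 2193 (-0.03, SE 0.07). The acetyltransferase gene speck differed by -0.01 (SE 0.07). ebony (e), which joins dopamine to beta-alanine, went from 256, 388 and 454 to 194, 313 and 347 (-0.37, SE 0.07, adjusted p = 0.0312, limma). Its signal climbed through the night in both genotypes, so that the arrays overlapped although fmn was lower at each time. This call was lost without the time block (adjusted p = 0.527) and without any 1 time point (0.0829 without ZT 16, 0.105 without ZT 20 and 0.112 without ZT 24, limma). Of 9 receptors of dopamine and other biogenic amines 0 were higher and 0 lower. The arrays did not overlap for 1 of them, against 26.5% of all probe sets tested. The D1-like receptor gene Dop1R1 had signals of 174, 207 and 191 in control and 259, 233 and 179 in fmn (0.21, SE 0.13, adjusted p = 0.369, limma), and the D2-like Dop2R differed by 0.03 (SE 0.07). The octopamine receptor gene Octbeta1R, with the smallest p of the list, differed by 0.25 (SE 0.07, adjusted p = 0.0896, limma).

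Of 15 clock genes tested 0 were higher and 0 lower (median -0.08), and per, tim and Clk followed a like course through the night in both genotypes. The planned members sgg, CkIIalpha, CkIIbeta, mts and nmo were not counted, since the platform annotation names no probe set for them alone. A probe set that the study's table names as CkIIbeta, given here after its value was seen, was lower at night (-0.70). At ZT 12 its difference was 0.35. per, a repressor of the clock, went from 1676 through 470 to 215 in control and from 1425 through 390 to 185 in fmn, and was lower in fmn at each time (-0.24, SE 0.07, adjusted p = 0.0939, limma). tim, the partner of per, had signals of 7866, 5081 and 2039 in control and 7626, 4525 and 1986 in fmn (-0.09, SE 0.07). Clk, an activator, climbed from 246 to 745 and 664 in control and from 327 to 867 and 791 in fmn, and was higher in fmn at each time (0.29, SE 0.07, adjusted p = 0.0704, limma). Its partner cyc differed by -0.19 (SE 0.07, adjusted p = 0.162, limma).

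Genes with a known part in sleep moved in both directions. Of 36 sleep control genes 2 were higher (CanA1 and Egfr) and 6 lower (SK, GABA-B-R1, Alk, Nmdar1, CanA-14F and CanB), 22.2% against 6.99% of all genes, with a median of 0.00. Pka-C1, a planned member, was not counted because the platform annotation does not name it. A probe set that the study's table names as Pka-C1 was higher (1.12). SK, a calcium-activated potassium channel, had signals of 3126, 3368 and 3083 in control and 1494, 1816 and 1772 in fmn (-0.92, SE 0.08, adjusted p = 0.00362, limma), and its 2 other probe sets also fell, one by 0.37 on the log2 scale and one, under 100 on all fmn arrays, at least 1.08-fold. All 3 have the suffix of probe sets shared by similar transcripts. Alk, a receptor tyrosine kinase, fell from 1434, 1351 and 1312 to 756, 774 and 866 (-0.78, SE 0.09). Every fmn array lay well below every control array for both genes. The GABA-B receptor subunit gene GABA-B-R1 had signals of 119, 160 and 118 in control and 74.7, 70.9 and 78.3 in fmn, at least 1.32-fold lower, with an adjusted p of 0.0735 without ZT 16 (limma). Without ZT 16, 0 of the list were higher and 3 lower, and without ZT 20 or ZT 24 1 and 4. The list was drawn up with results of these arrays known and is not independent evidence of its direction.

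The subunits of the NMDA receptor and of calcineurin did not all move together. Of 15 genes of glutamate receptors and calcineurin 1 was higher and 3 lower, with a median of 0.07. Nmdar1, the NMDA receptor subunit that binds glycine in mammals, had signals of 506, 537 and 435 in control and 344, 360 and 331 in fmn (-0.51, SE 0.08, adjusted p = 0.0151, limma). The calcineurin catalytic subunit gene CanA-14F went from 808, 691 and 821 to 648, 566 and 532 (-0.41, SE 0.09, adjusted p = 0.0457, limma), and the regulatory subunit gene CanB from 5888, 5856 and 6362 to 4666, 4622 and 4808 (-0.36, SE 0.07, adjusted p = 0.0305, limma). In each of these genes the fmn arrays lay below the control arrays. CanA1, another catalytic subunit, moved the other way, from 124, 152 and 127 to 182, 207 and 180 (0.50, SE 0.07, adjusted p = 0.0119, limma). A dimmer probe set of CanA-14F differed by -0.55 but did not pass (adjusted p = 0.0652, limma), and both probe sets of this gene have the suffix of those shared by similar transcripts. The calls were lost without ZT 16 for Nmdar1 (adjusted p = 0.0661), CanA1 (0.0519), CanA-14F (0.106) and CanB (0.0745), without ZT 20 for Nmdar1 (0.0516), CanA-14F (0.0612) and CanB (0.13) and without ZT 24 for CanA-14F (0.161) and CanB (0.12), and CanA-14F also missed the threshold without the time block (0.0533, limma).

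In 4 lists of receptors, channels and active zone genes, each gene given by its brightest probe set, 8 genes were lower and 0 higher. The changed shares were 16.7%, 12.5%, 17.6% and 10.5% for nicotinic, GABA, potassium channel and synaptic genes, against 6.99% of all genes. Of 12 genes of nicotinic receptors and acetylcholine synthesis 0 were higher and 2 lower, of 8 GABA genes 0 and 1, of 17 potassium channel genes 0 and 3, and of 19 genes of synaptic vesicles and the active zone 0 and 2, with medians of -0.09, -0.05, -0.04 and -0.06. The nicotinic receptor subunit gene nAChRalpha7 had signals of 494, 409 and 513 in control and 292, 319 and 308 in fmn (-0.62, SE 0.10), and nAChRalpha5 had 715, 651 and 641 and 471, 427 and 486 (-0.54, SE 0.08). Neither subunit showed an overlap of the arrays. The potassium channel genes SLO2 (394, 364 and 397 against 259, 280 and 254) and Shaw (335, 350 and 376 against 270, 223 and 239) differed by -0.55 (SE 0.08) and -0.54 (SE 0.09). Rim, a scaffold of the active zone, went from 1343, 1383 and 1287 to 1011, 999 and 1015 (-0.41, SE 0.07), and brp, which forms the dense body at fly synapses, from 184, 210 and 180 to 158, 155 and 140 (-0.35, SE 0.08, adjusted p = 0.0468, limma). Another probe set of brp differed by 0.00. Without ZT 16 the adjusted p was 0.089 for nAChRalpha7, 0.0677 for nAChRalpha5, 0.0727 for SLO2, 0.0745 for Rim and 0.0689 for brp, without ZT 20 it was 0.0587 for Shaw, 0.126 for Rim and 0.257 for brp, and without ZT 24 it was 0.0597, 0.0551 and 0.143 for these 3 genes (limma). brp also missed the threshold without the time block (0.0578). A second probe set of Shaw differed by 0.08 and did not pass. Outside these lists or on dimmer probe sets some such genes rose, among them, chosen after their values were seen, the sodium channel gene para (0.49, SE 0.08) and one of 2 probe sets of cpx, a regulator of vesicle release (1016, 1108 and 1077 against 3373, 3100 and 3274, 1.60, SE 0.08), the other being at -0.01. Both probe sets of cpx have the suffix of those shared by similar transcripts.

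**Figure D3:**
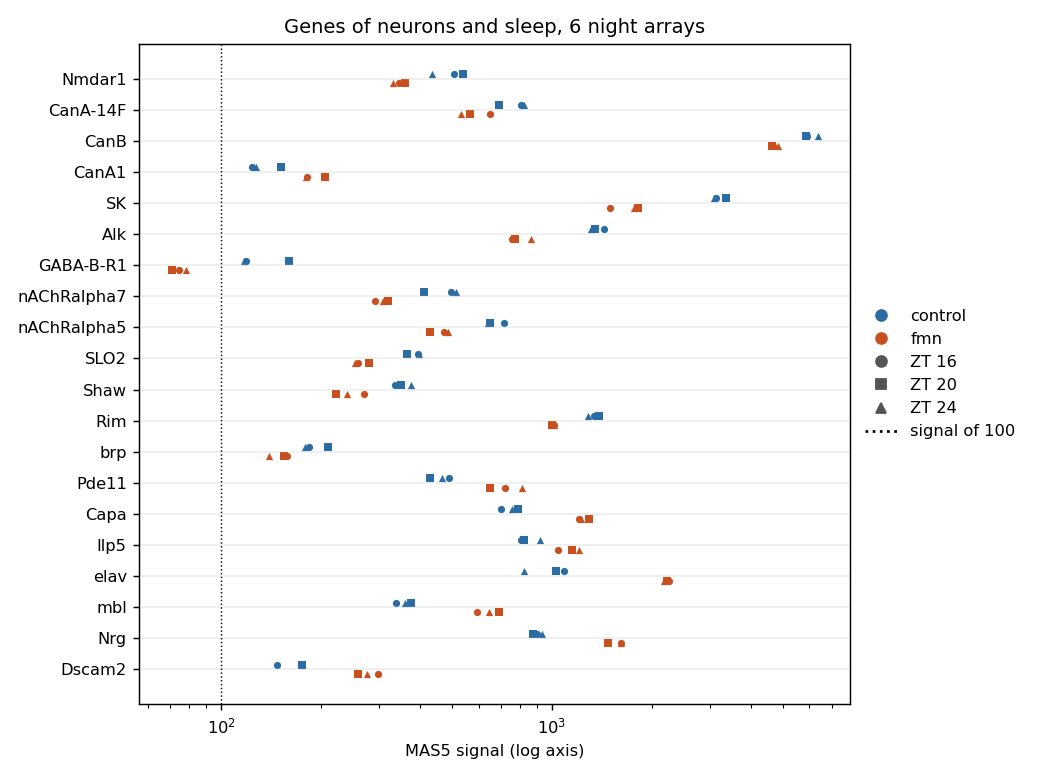
MAS5 signals (log axis) of 20 genes of neurons and sleep on the 6 night arrays, with colour for genotype and marker for time. The 3 fmn points lie below the 3 control points for 12 of the genes, from Nmdar1 to brp apart from CanA1, and above them for CanA1, Pde11, Capa, Ilp5, elav, mbl, Nrg and Dscam2.

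A few signaling genes outside the synapse changed. The changed shares were 6.25%, 8.7% and 28.6% for the cyclic AMP, neuropeptide and insulin lists, against 6.99% of all genes. The shares of the cyclic AMP and neuropeptide lists were thus near that of all genes, and Ilp5 counts in both the neuropeptide and the insulin list. Of 16 genes of cyclic AMP and protein kinase A 1 was higher and 0 lower (median -0.06), namely the phosphodiesterase gene Pde11, with signals of 490, 429 and 465 in control and 722, 651 and 813 in fmn (0.65, SE 0.08, adjusted p = 0.00857, limma). Pka-C1, Pka-C2 and Pka-R2 were not counted, since the platform annotation names no probe set for them alone. A probe set that the study's table names as Pka-C1, given here after its value was seen, was higher at night (1.12). At ZT 12 its difference was -0.31. Of 23 neuropeptide genes 2 were higher and 0 lower (median 0.08). Capa, a precursor of peptides that act on water balance, rose from 700, 791 and 755 to 1211, 1297 and 1225 (0.73, SE 0.07, adjusted p = 0.00374, limma). The arrays were far apart for Capa. Ilp5, an insulin-like peptide of brain neurosecretory cells, had signals of 809, 825 and 919 in control and 1041, 1153 and 1210 in fmn (0.41, SE 0.07), with an adjusted p of 0.059 without ZT 16, 0.134 without ZT 20 and 0.0786 without ZT 24 (limma). Of 14 genes of insulin, adipokinetic hormone and TOR signaling 3 were higher (tobi, bmm and Ilp5) and 1 lower, ImpL2, a secreted protein that binds insulin-like peptides (3662, 2986 and 2868 against 2048, 2227 and 1999, -0.60, SE 0.10), with a median of 0.08. Without ZT 16 the adjusted p of ImpL2 was 0.0573 (limma).

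RNA-binding proteins and adhesion molecules of neurons changed by up to 2.28-fold. Of 10 genes of the elav family and other RNA-binding proteins 3 were higher and 0 lower (median 0.11). elav, an RNA-binding protein that marks neurons, had signals of 1090, 1031 and 823 in control and 2259, 2228 and 2174 in fmn (1.19, SE 0.09, adjusted p = 0.00277, limma), while the summed neuronal markers, elav included, overlapped between the genotypes. The splicing factor gene mbl rose from 338, 375 and 359 to 592, 691 and 643 (0.84, SE 0.07), and Rbp6 from 340, 336 and 312 to 772, 487 and 504 (0.80, SE 0.13). All 3 had fmn arrays well above the control arrays. Of 5 tested probe sets of mbl 2 changed, and the differences of the 5 ran from -0.10 to 1.01. Of 34 genes of axon guidance and cell adhesion 3 were higher (Nrg, Dscam2 and kek2) and 4 lower (hbs, kirre, dpr6 and Ptp4E), with a median of 0.02, and 2 and 1 without ZT 16, 4 and 4 without ZT 20 and 3 and 1 without ZT 24. Nrg, the neuroglian adhesion protein, rose from 901, 877 and 933 to 1614, 1480 and 1616 (0.79, SE 0.07), and hbs, an adhesion protein of the nephrin family, went from 200, 158 and 193 to 124, 114 and 111 (-0.66, SE 0.09). kirre, a partner of that family, differed by -0.57 (SE 0.10), with arrays that overlapped and an adjusted p of 0.147 without the time block (limma). Without ZT 16 hbs had an adjusted p of 0.0643 and kirre of 0.0972, and without ZT 24 kirre had 0.062 (limma).

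Among regulators, matrix proteins and tubulins 9 genes changed, against 6.99% of all genes: 6.25%, 21.4%, 20% and 50% of the chromatin, zinc finger, integrin and tubulin lists. Of 16 chromatin remodelling genes that the platform names 1 was higher and 0 lower (median -0.01), simj, a subunit of a deacetylase complex, with signals of 112, 119 and 97.4 in control and 167, 189 and 160 in fmn (0.65, SE 0.07). Of 14 zinc finger and BTB regulators 2 were higher and 1 lower (median -0.04). The BTB factor gene lola went from 2034, 2228 and 1712 to 1006, 982 and 938 on its brightest probe set (-1.02, SE 0.09, adjusted p = 0.00299, limma). That is one of 15 tested probe sets of lola, of which 3 changed, all lower. mamo differed by 0.60 (SE 0.10, adjusted p = 0.0592 without ZT 24), and Mnt, a partner of Max, by 0.33 (SE 0.07), with an adjusted p of 0.0797, 0.23 and 0.142 without ZT 16, ZT 20 and ZT 24 and of 0.103 without the time block (limma). Of 15 genes of integrins and their partners 2 were higher and 1, scb, lower (median 0.02). The signal of scb is not a measure of its RNA, as said above. The higher ones were the laminin gene wb (0.48, SE 0.08) and the collagen gene Col4a1 (1659, 1526 and 1488 against 2018, 2216 and 2043, 0.42, SE 0.08). Of 4 tubulin genes 2 were higher, alphaTub84D and betaTub60D (0.47, SE 0.09), and 0 lower (median 0.23). Without ZT 20 the adjusted p was 0.0707 for wb, 0.159 for Col4a1 and 0.127 for betaTub60D, and without ZT 24 it was 0.0823, 0.106 and 0.0893 (limma).

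In some genes different probe sets moved in opposite directions. Of 101 genes with 2 or more tested probe sets of which at least 1 changed, all probe sets changed in 13, and in 6, Dscam2, Evi5, Nrg, Sh, ct and pdm3, some rose and others fell. They are named here after their values were seen. For the potassium channel gene Sh, one probe set had signals of 133, 143 and 96.5 in control and 194, 260 and 206 in fmn (0.83, SE 0.12, adjusted p = 0.0123, limma), and another had 1570, 1398 and 1495 in control and 1128, 1054 and 1138 in fmn (-0.43, SE 0.07, adjusted p = 0.0207, limma). The 2 remaining probe sets of Sh, both brighter than the first, differed by -0.10 and 0.00 and did not pass. For Nrg 2 probe sets rose by 0.79 each and the third, with signals of 488, 487 and 463 in control and 358, 302 and 323 in fmn, fell (-0.55, SE 0.08, adjusted p = 0.012, limma). Dscam2, another adhesion gene, had a probe set at 0.74, one under 100 on all fmn arrays that was at least 1.16-fold lower, and one that did not pass at 0.26. The transcription factor genes ct and pdm3 had changes of 0.47 and -0.44, and of 0.41 and -0.57. For Evi5 they were 0.52 and -0.83. Of the 97 changed genes named here 16 had more than 1 tested probe set, all of which changed in 2 genes and lay on both sides of 0 in 9. The 6 genes above thus had no single direction, and a value for the gene is the value of the probe set named.

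Most phototransduction genes had differences below 0 that did not pass the test, while genes of eye pigment lay on both sides of 0. Of 20 phototransduction genes 1 was higher and 0 lower, and 14 were below 0 (70% as against 53.5% of all genes), with a median of -0.13. Under quantile normalization the median was -0.07. The opsin genes ninaE and Rh2 to Rh6 were not counted in this list or the markers, since the platform annotation names no probe set for them alone. The same held for norpA, ninaA and ninaC. The 7 photoreceptor markers were all below 0 with 0 changed, and their summed signal was lower in fmn as given above. The exception was stops, which sustains phospholipase C in photoreceptors, with signals of 1471, 1518 and 1755 in control and 2688, 2573 and 2866 in fmn (0.78, SE 0.07, adjusted p = 0.00362, limma). Of 15 genes of eye pigment and the kynurenine pathway 1 was higher and 1 lower (median -0.01). ry, the xanthine dehydrogenase of pigment synthesis, rose from 513, 511 and 478 to 1050, 1336 and 1366 (1.31, SE 0.11, adjusted p = 0.00308, limma). lt, needed for transport to pigment granules, differed by -0.34 (SE 0.07, adjusted p = 0.0445), with 0.102, 0.248 and 0.092 without ZT 16, ZT 20 and ZT 24 (limma). Of 2 corneal lens genes that the platform names 0 were higher and 0 lower (median 0.04), with Cpr66D at 0.22 (SE 0.08, adjusted p = 0.186, limma).

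Detoxification enzymes were among the changed genes in both directions. Of the P450, UDP-glycosyltransferase, glutathione transferase and esterase lists 16%, 28.6%, 3.57% and 22.2% changed, against 6.99% of all genes. Of 50 cytochrome P450 genes 6 were higher (Cyp4p1, Cyp309a1, Cyp4ac2, Cyp6d4, Cyp4ac1 and Cyp4d20) and 2 lower (Cyp6d2 and Cyp4p3), with a median of 0.05. Without ZT 16 these counts were 2 and 2, without ZT 20 3 and 3 and without ZT 24 3 and 2. Cyp309a1 went from 158, 132 and 137 to 235, 305 and 301 (0.97, SE 0.14), and Cyp4p3, a close relative of Cyp4p1, from 279, 282 and 315 to 164, 142 and 183 (-0.85, SE 0.08). These 2 genes thus moved apart, Cyp4p1 by 3.93-fold upward and Cyp4p3 by 1.80-fold downward. Of 14 UDP-glycosyltransferase genes 3 were higher and 1, Ugt37D1, lower, and 12 were above 0 (median 0.12). Ugt35C1 rose from 233, 237 and 174 to 721, 733 and 667 (1.73, SE 0.09, adjusted p = 0.000676, limma). Ugt35A1 (0.68, SE 0.08) and Ugt49C1 (0.45, SE 0.09) climbed from ZT 16 to ZT 24 in both genotypes, so that their arrays overlapped, and without the time block their adjusted p was 0.2 and 0.406 (limma). Of 28 glutathione transferase genes 1 was higher, GstS1 (1425, 1212 and 1454 against 1731, 1950 and 1945, 0.46, SE 0.10), and 0 lower (median 0.01). Of 9 esterase genes 2 were higher, alpha-Est5 (0.82, SE 0.13) and Est-Q (0.68, SE 0.07), and 0 lower (median 0.05). Without ZT 16, ZT 20 and ZT 24 the adjusted p of GstS1 was 0.0653, 0.182 and 0.0891, and that of Ugt49C1 was 0.136 without ZT 20 and 0.0901 without ZT 24 (limma).

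In sugar and fat metabolism 7 genes rose and 2 fell. The changed shares of the sugar and fat lists were 20.7% and 10.3%, against 6.99% of all genes. Of 29 genes of sugar metabolism 5 were higher (tobi, Sodh1, Hex-C, fbp and Taldo) and 1 lower (Gld), with a median of 0.08, and 3, 2 and 2 were higher and 1 lower without ZT 16, ZT 20 and ZT 24. tobi, an alpha-glucosidase whose expression follows sugar and protein in the diet, had signals of 394, 189 and 411 in control and 745, 721 and 921 in fmn (1.34, SE 0.19, adjusted p = 0.0123, limma). Sodh1, a sorbitol dehydrogenase, rose from 1188, 753 and 1304 to 1904, 1592 and 2534 (0.90, SE 0.10, adjusted p = 0.0723 without the time block, limma). Both dipped at ZT 20 in both genotypes, as did Lsp2. The hexokinase gene Hex-C went from 2241, 2189 and 2236 to 2822, 3317 and 3669 (0.55, SE 0.10), and the glucose dehydrogenase gene Gld from 642, 682 and 615 to 352, 302 and 261 (-1.09, SE 0.09, adjusted p = 0.00287, limma). Of 29 genes of fatty acid synthesis, elongation and storage 2 were higher and 1, Elovl7, lower, and 21 were above 0 (median 0.05). The lipase gene bmm, which breaks down stored fat, went from 1247, 1159 and 1048 to 1530, 1663 and 1538 (0.45, SE 0.09), and mdy, an acyltransferase that makes stored fat, differed by 0.45 (SE 0.08) with overlapping arrays (adjusted p = 0.416 without the time block, limma). Without ZT 20 the adjusted p was 0.0566 for Hex-C, 0.109 for bmm and 0.0936 for mdy, and without ZT 24 it was 0.0741, 0.104 and 0.097 (limma). The fat body markers had summed signals of 100014 to 119231 in control and 98834 to 112179 in fmn, with Lsp2 and fit higher and 4 of 6 below 0.

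The machinery of respiration and protein synthesis was nearly unchanged gene by gene. Of 57 genes of the respiratory chain and ATP synthase 0 were higher and 1 lower, and 51 were below 0 (median -0.09). The lower one was sun, the epsilon subunit of ATP synthase, with signals of 237, 282 and 303 in control and 147, 227 and 207 in fmn (-0.52, SE 0.10, adjusted p = 0.0275, and 0.154 without the time block, limma). Of 11 Krebs cycle genes 0 were higher and 0 lower (median -0.06), with Idh3b at -0.25 (SE 0.08, adjusted p = 0.106, limma). Of 29 cytosolic ribosomal protein genes 0 were higher and 0 lower, although 28 were below 0 (median -0.10), and their median was -0.0021 under quantile normalization and 0.0077 without ZT 16. RpL41 differed by -0.14 (SE 0.09, adjusted p = 0.427, limma). Muscle markers were below 0 in 12 of 13 with 0 changed, while 53.5% of all genes were below 0. Of 69 mitochondrial ribosomal protein genes 0 were higher and 2 lower (median -0.02), mRpL20 (1473, 1492 and 1445 against 1045, 1140 and 969, -0.49, SE 0.08) and mRpL32 (-0.35, SE 0.07, adjusted p = 0.0991 without the time block, limma). Of 26 proteasome genes 0 were higher and 1 lower, Rpn6 (3407, 3357 and 3424 against 2551, 2743 and 2508, -0.39, SE 0.07), although 20 were above 0 (median 0.05). Without ZT 16 the adjusted p was 0.0885 for sun, 0.0662 for mRpL20, 0.102 for mRpL32 and 0.0898 for Rpn6, without ZT 24 it was 0.0677, 0.0591, 0.138 and 0.116, and without ZT 20 it was 0.115 for mRpL32 and 0.0695 for Rpn6 (limma).

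Few stress and immune genes changed. Of 18 genes of heat shock proteins and chaperones 0 were higher and 1 lower (median -0.06), the calnexin gene Cnx99A (5636, 6303 and 4909 against 4464, 4064 and 3515, -0.49, SE 0.08), with an adjusted p of 0.0512, 0.0931 and 0.0542 without ZT 16, ZT 20 and ZT 24 (limma). Of 8 antimicrobial peptide genes 0 were higher and 1 lower, although 6 were above 0 (median 0.13). Without ZT 16, 2 were higher and 1 lower (median 0.50), and without ZT 20 the median was -0.05. Mtk, a peptide against fungi and bacteria, went from 16262, 14057 and 12822 to 9720, 9843 and 9146 (-0.58, SE 0.09, adjusted p = 0.0138, limma), whereas Def and CecB, named after their values were seen, differed by 0.82 and 0.77 without passing (adjusted p of 0.255 and 0.232, limma). Of 26 genes of peptidoglycan sensing and of the Toll and Imd pathways 0 were higher and 0 lower (median 0.10), with the adaptor gene imd at 0.31 (SE 0.09, adjusted p = 0.104, limma). Of 4 genes of Turandot stress peptides and JAK-STAT signaling that the platform names 1 was higher and 0 lower (median 0.14), TotB, from 127, 114 and 131 to 200, 299 and 271 (1.03, SE 0.14, adjusted p = 0.0112, limma).

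Secreted carrier proteins showed changes in both directions within their families. Of 24 odorant-binding protein genes 3 were higher (Obp83cd, Obp99b and Obp83ef) and 2 lower (Obp19b and Obp49a), with a median of 0.03. Obp83cd rose from 222, 252 and 289 to 552, 655 and 725 (1.34, SE 0.07, adjusted p = 0.000676, limma), and Obp99b from 3122, 2545 and 2704 to 5169, 6264 and 4981 (0.97, SE 0.12). Obp83ef differed by 0.54 (SE 0.07) and Obp19b by -0.53 (SE 0.07, adjusted p = 0.0512 without ZT 16 and 0.0732 without the time block, limma). Of 5 Npc2 sterol-binding protein genes 1 was higher and 1 lower (median -0.06). Npc2g went from 6941, 6445 and 6736 to 11600, 13152 and 13331 (0.92, SE 0.09), and Npc2h from 3524, 4015 and 4721 to 2325, 2254 and 2288 (-0.83, SE 0.10). Neither of the pair had arrays that overlapped. Of 4 larval serum and yolk protein genes 1, Lsp2, was higher and 0 lower (median -0.15). Of 18 cuticle protein genes 1 was higher, Cpr72Ec (0.53, SE 0.07, overlapping arrays, adjusted p = 0.397 without the time block, limma), and 2 were lower, Cpr11B (345, 240 and 206 against 136, 142 and 95.1, -1.07, SE 0.12) and Cpr49Ae (-0.72, SE 0.07), with a median of 0.00. Of 166 odorant and taste receptor genes with a probe set, 3 passed the filter on low signals, and of these 0 were higher and 0 lower (median -0.02), with Ir76a at -0.07 (SE 0.11). In all, the lists held 754 tested genes, of which 84 (11.1%) changed, 46 higher and 38 lower, against 6.99% of all genes, and the lists had been drawn up with the study's own list of changed genes known.

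**Figure D4:**
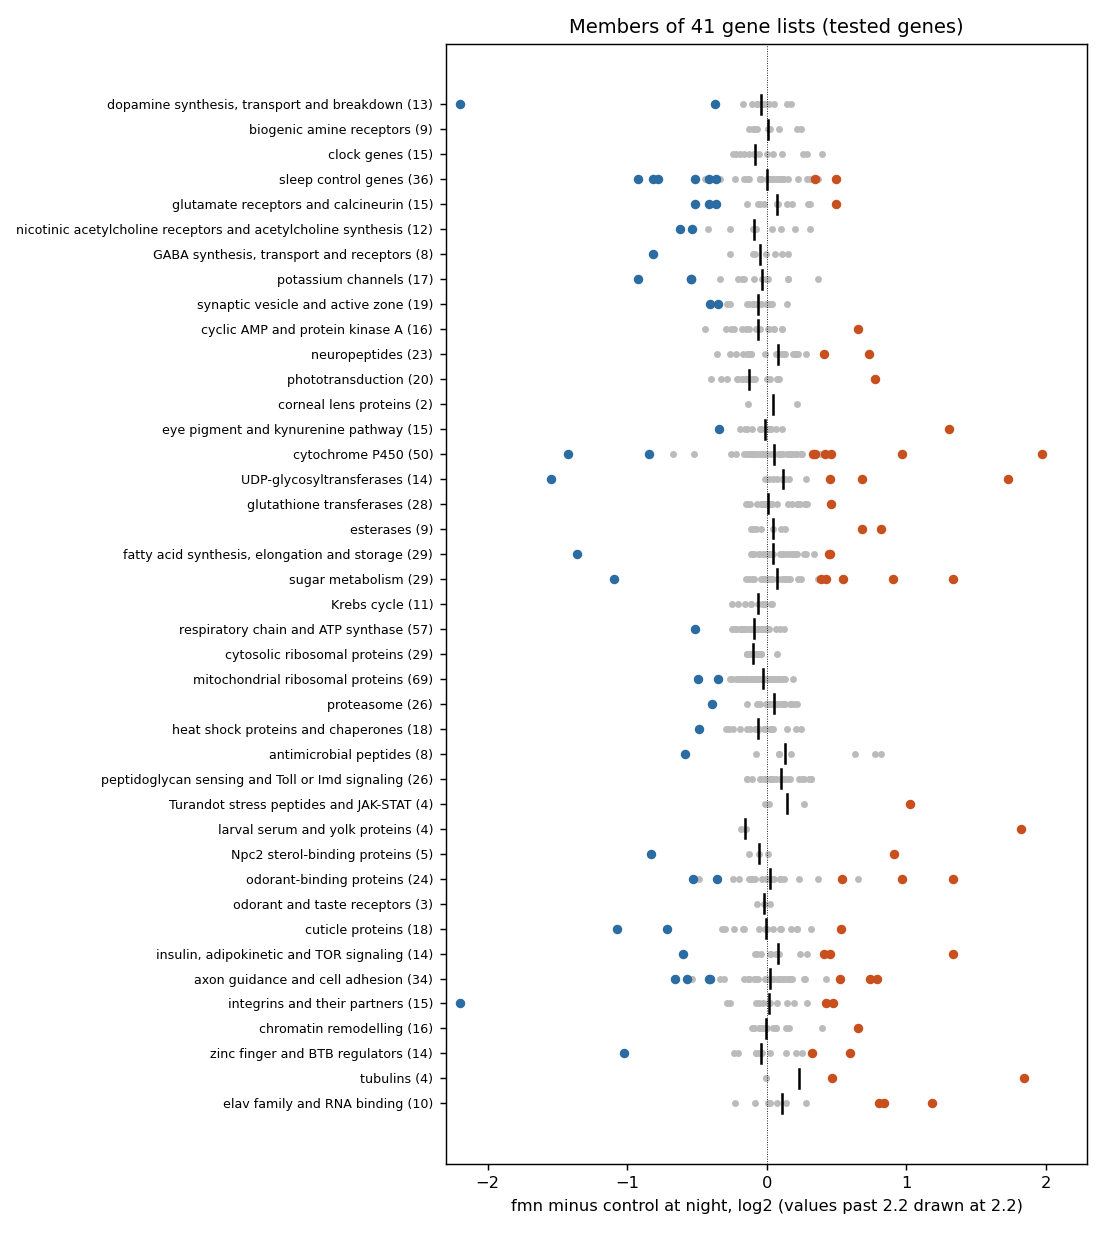
Each point is 1 tested gene of the list on the left (number of tested genes in brackets) at its log2 difference of fmn minus control at night. Orange points were higher and blue points lower in fmn, grey points did not change, black bars mark the medians, which lie between -0.15 and 0.23, and DAT and scb are drawn at the edge.

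The night differences were mostly present at the other times too. Of the 677 probe sets that changed at night, 663 (97.9%) had the same direction in the mean of the 4 other times, against 73.4% of all probe sets tested, and in 435 the size of that mean passed 0.32 as well. The median ratio of the difference at other times to that at night was 0.704. The probe sets were chosen by their night difference, which by itself lowers this ratio. By time it was 0.763, 0.83 and 0.822 at ZT 0, ZT 4 and ZT 8 and 0.496 at ZT 12. In the test of the interaction of genotype with night, over all 14 arrays in limma, 0 of 8720 probe sets (0.0%) passed, and 522 had an unadjusted p under 0.05. The smallest adjusted p was 0.216, and over the alternatives it ran from 0.0604 to 0.858. The 8 genes with the smallest p were stw, CG2124, CG4627, CG31915, Ncoa6, Sh, CG8617 and ATbp. stw, a laccase gene, had signals of 656, 468 and 601 in control and 657, 401 and 530 in fmn at night (-0.14), and differed by 0.80, 0.64, 0.68 and 0.51 at ZT 0, ZT 4, ZT 8 and ZT 12. Ncoa6, from 139, 109 and 119 to 75.7, 57.3 and 74.7 at night (at least 1.22-fold lower), differed by -0.02 to -0.37 at the other times. CG4627 (0.46, SE 0.07) and ATbp (-0.41, SE 0.07) also changed at night, and at the other times differed by -0.14 to 0.01 and by -0.06 to 0.24. CG4627 had an adjusted p of 0.0754 without the time block, 0.059 without ZT 16 and 0.0544 without ZT 24, and ATbp one of 0.0585, 0.113 and 0.0882 without ZT 16, ZT 20 and ZT 24 (limma). The probe set of Sh that rose at night differed by -0.07, -0.03, -0.06 and 0.23 at the 4 other times. None of these passed the interaction test after adjustment, so a night-specific difference was not shown for any gene. The test counted ZT 24 as night and ZT 0 among the other times. The study treats its ZT 0 and ZT 24 samples as overlapping and used them to gauge experimental variation. The test thus set repeats of the same point of the cycle against each other. Without the arrays of ZT 24, and so with fewer arrays, 0 probe sets passed either (474 at an unadjusted p under 0.05, smallest adjusted p 0.72, limma).

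ZT 12 was the exception among the other times. There 185 of the 677 probe sets had the opposite direction to the night, against 36 at ZT 0, 32 at ZT 4 and 33 at ZT 8, and 264 (39.0%) reached less than 0.25 of the night difference, against 9.31% to 12.4%. Opposite at ZT 12 and at no other time were 157 probe sets, 91 of them higher at night and 66 lower. elav had signals of 916, 1010, 1006 and 1108 in control and 2327, 2335, 2265 and 612 in fmn at ZT 0, ZT 4, ZT 8 and ZT 12. SK had 2732, 2885, 2510 and 2306 in control and 2115, 1685, 1222 and 2921 in fmn. In both genes the fmn array of ZT 12 stood apart from the 6 other fmn arrays and the control array did not. Among the genes of the lists that changed at night, those opposite at ZT 12 were SK, Alk, CanA-14F, nAChRalpha5, brp, Rim, Dscam2, Nrg, dpr6, lola, mamo, elav, mbl, Rbp6, simj, sun, Rpn6, Cnx99A, Cpr49Ae and ImpL2. All 8 changed P450 genes, all 4 changed UDP-glycosyltransferases, all 6 changed genes of sugar metabolism and all 5 changed odorant-binding proteins kept their night direction at ZT 12. Nmdar1 and CanB also kept it, with differences of -0.22, -0.30, -0.08 and -0.66 and of -0.27, -0.36, -0.43 and -0.12 at ZT 0, ZT 4, ZT 8 and ZT 12. Ratios of 3' to 5' signals of the control probe sets, a sign of RNA integrity, on the fmn array of ZT 12 (2.25 for actin, 2.78 for eIF-4a and 2.41 for GAPDH) lay within those of the 13 other arrays (1.67 to 2.28, 2.38 to 3.12 and 1.89 to 2.73). On that array DAT and scb were low as on the other fmn arrays, with differences of -7.10 and -3.57 from control at ZT 12. There is 1 array labelled fmn at ZT 12, and whether that array or that time of day sets these values apart cannot be told apart.

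**Figure D5:**
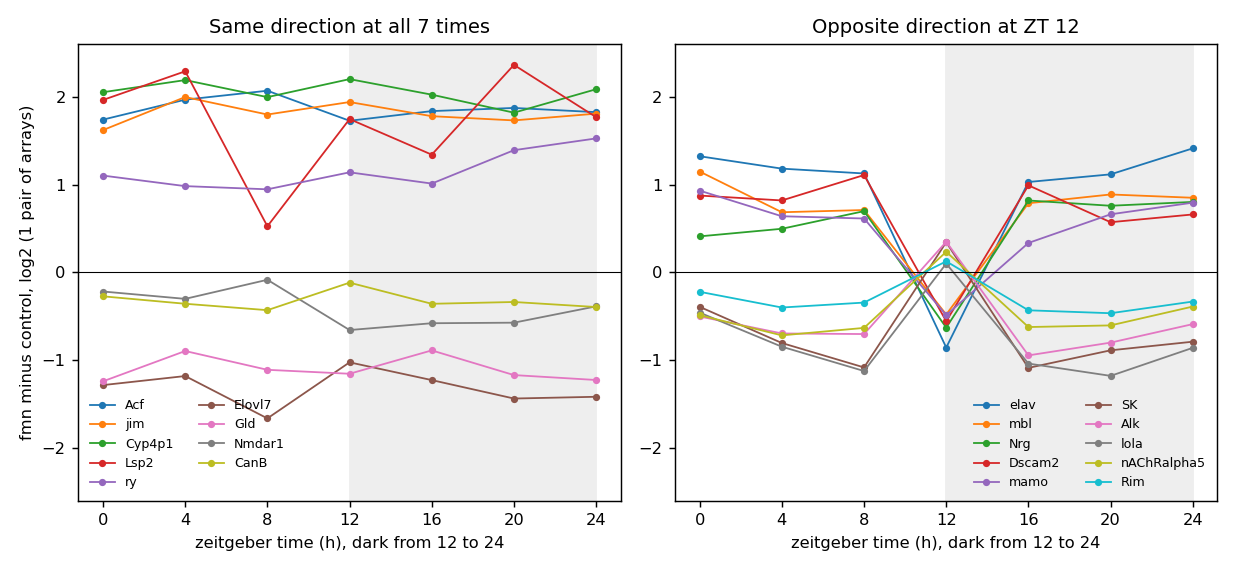
The log2 difference of fmn minus control at each of the 7 time points, from 1 pair of arrays each, for genes with the same direction at all times (left) and for genes opposite at ZT 12 (right), with the dark hours shaded. On the right, elav goes from 1.13 at ZT 8 to -0.86 at ZT 12 and SK from -1.08 to 0.34, and both have their earlier direction again at ZT 16.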

How the data were processed

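Total RNA of fly heads was labeled and hybridized to Affymetrix GeneChip Drosophila Genome 2.0 arrays, 1 array per genotype and time. The deposited values are the MAS5 intensity of each probe set on a linear scale, as the authors computed it (version and scaling target not given in the sources used here), not log transformed. The later normalization and Present filter of the authors are not in these values.

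Of 18952 probe sets 183 controls were left out. Of the 18769 kept, 13646 name 1 gene in the platform annotation, 402 several and 4721 none, symbols were updated through a RefSeq table (13543 found), and 55 of the unnamed were identified, without values, through the study's supplementary table (Acf among them) and counted in no list. Log2 signals minus the 75th percentile of each array were tested with limma 3.58.1 (lmFit, eBayes) in R 4.3.3 over 8720 probe sets with a signal of at least 100 on at least 3 of the 6 night arrays, with the time point as a block. Of these, 8290 had it on all 6. The time points pair the arrays by label. Deviations of same-time arrays correlated at 0.238, 0.263 and 0.353, and those of different times at -0.33 to 0.0502. Since no time point was repeated within the night arrays, SEs and p-values rest on the spread of the difference over 3 times. In limma this spread is drawn, for each probe set, toward that common to all those tested (4.19 prior degrees of freedom). The number of arrays limits the precision. Folds against a signal under 100 on all 3 arrays of a genotype are bounds, the mean signal of the other genotype over 100. The interaction with night was fitted over 14 arrays. No sequences are given.

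Named were DAT, scb and genes that the paper names for the arrays (Dop1R2 was not analysed here), the 12 largest rises and falls, up to 4 changed members of each of 41 lists (where none, the member with the smallest p), up to 6 changed genes within 250 genes of DAT, the 8 genes with the smallest interaction p, and up to 6 genes per direction above 100 in 1 genotype only. A gene stands for its brightest probe set except in the rankings of rises and falls, of the interaction and of genes above 100 in 1 genotype. Several further genes, among them Ugt37D1, stops and Rpn6, have probe sets with the suffix of those shared by similar transcripts. The members, lists and rules were chosen with earlier results of these data known. The fit was tested on simulated data. Alternatives changed the block, scaling, filter, pseudocount (32), test, threshold (1.5-fold) and arrays.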

Additional observations from a re-analysis of the deposited data

Results flagged for a closer look

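Markers of organs outside the head stood out on 3 arrays of the other times. The night arrays had been chosen as free of such transcripts, so their low sums are no separate result. The summed signal of the testis and male accessory gland markers was 5991 on the control array of ZT 0, against 364 to 419 on the 3 other control arrays of those times, and 5323 on the fmn array of ZT 4, against 380 to 463. The gut enzymes had a sum of 7118 on the control array of ZT 0, against 573 to 587. They were also high on the fmn arrays of ZT 4 (5204) and ZT 8 (15611), against 469 and 524 on those of ZT 0 and ZT 12. The ovary and eggshell markers had a sum of 6532 on the fmn array of ZT 8, against 623 to 686. Apart from the gut enzymes in fmn, which had 2 high arrays, the highest of 4 arrays lay far from the 3 others in each of these sums. Of 20 groups of 4 arrays examined in this way 4 had such an array. Chance gives about 1 in 20 for independent repeats, which arrays of different times and sums from the same array are not. The night groups, of 3 arrays each, were not examined in this way. These arrays enter only the comparison with the other times and the interaction test, and without them and without the time block 0 probe sets passed that test in limma (502 at an unadjusted p under 0.05, smallest adjusted p 0.108).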

How the results depend on the processing

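The 677 changed probe sets (347 higher, 330 lower) kept their count within 1.5 times under no further scaling, scaling by the median, quantile normalization, the filter on all 6 arrays, the signal part of the filter of the methods, a pseudocount of 32, an intensity trend and a fit of all 14 arrays, with 626 to 784 changed. The Present calls that the methods also used are not in these values. With no replicate block 550 changed (260 higher, 290 lower), 512 of them also in the blocked fit, and 15 of the 97 changed genes named missed the threshold, as given beside them. With no filter 0 changed (0 higher, 0 lower), with 1866 at an unadjusted p under 0.05 in limma, and the share around DAT was 0%. At 1.5-fold 280 changed (153 higher, 127 lower), by construction fewer. The methods' t-test called 175 (70 higher, 105 lower), after 217 at its adjusted threshold and 1619 before adjustment. Leaving out 1 pair of arrays gave 349 (195 higher, 154 lower) without ZT 16, 440 (221 higher, 219 lower) without ZT 20 and 417 (221 higher, 196 lower) without ZT 24, and a share around DAT of 6.15% without ZT 16. The causes were not tested, apart from the fewer arrays. No changed gene named here reversed under these settings. Reversed were 3 genes that had not changed: ple, at 0.222 without ZT 20, speck, at 0.0153 without ZT 16 and 0.00135 without ZT 20, and Ir76a, at 0.0384 without ZT 24. The interaction count was 0 in limma under each setting run, with 358 to 865 at an unadjusted p under 0.05. Signals under 100 limit the folds given as bounds.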
